A study of Homo sapiens with 6 samples.

Results

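The genes described are 5 receptor tyrosine kinase genes, EGFR, ERBB2, ERBB3, MET and AXL, and 5 genes for ligands of the epidermal growth factor (EGF) family, AREG, EREG, TGFA, HBEGF and EPGN. They were chosen by name, 1 row each of the 58735 genes counted, and all 10 passed the filter on low counts that left 15496 genes for testing. The cells were labelled as SW1990, an established human line, and as pancreatic ductal adenocarcinoma. The identity of the line rests on these labels and was not tested. One group of 3 libraries came from cells given 5 µM EPZ-5676, a small molecule that inhibits DOT1L, a histone methyltransferase found at actively transcribed genes. The 3 controls are called untreated in the sample characteristics, while the treatment protocol gives them DMSO, the solvent, in equal volume. No duration of treatment was found in the sources used here, every library comes from 1 cell line, and no label says whether replicates were separate cultures, so that p-values measure the spread between these libraries, which may be technical.

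Receptors of the ERBB family sit in the cell membrane and pair with each other when a ligand binds, which switches on their kinase domains. EGFR binds the EGF-like ligands, ERBB2 has no known ligand of its own and acts as the preferred partner of the others, and ERBB3 binds neuregulins but has little kinase activity. MET is the receptor of hepatocyte growth factor, and AXL, of the TAM family, is the receptor of GAS6. The ligands are made as membrane proteins and cut free by metalloproteases such as ADAM17, and receptors are taken up and degraded after ubiquitin ligases such as CBL have marked them. In pancreatic ductal cancer EGFR and its ligands are often expressed at high levels, and EGFR is a drug target there.

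MET fell and ERBB2 rose in treated cells, and the other 8 genes did not pass the test. Of all 15496 genes tested, 33.7% were called in either direction, so these calls are not above the background. MET was at 0.593 times its control level and ERBB2 at 1.42 times. Fold changes of genes across the whole data set followed the GC content of their transcripts. A correction for GC content and transcript length changed the picture, and with it 11.0% of all tested genes were called in either direction. The fall of MET shrank, the rise of ERBB2 was no longer called, and AREG and EREG were called higher. Fold changes from both fits are therefore given below for most members, whereas levels, ratios and shares are given without correction. The correction fits a smooth trend in each library and takes away any effect of the treatment that follows GC content as well as technical trends, and these cannot be told apart here.

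Total counts were 33970420 to 39749648 reads per library. Reads of the members ran from 39 to 86 per library for EPGN up to 8789 to 12170 for AXL, so that EPGN is the member with the least precise level. Markers of the labelled cell type were mixed. The epithelial keratins KRT7, KRT8 and KRT18 stood at 1356 to 3974 CPM (counts scaled to library size with TMM factors) in treated and 1142 to 2832 CPM in control libraries. Each of these 3 genes was higher in every treated library than in any control, as were 21.8% of all tested genes. Without correction KRT8 (0.37 ± 0.11 on the log2 scale, adjusted p = 0.0170) and KRT18 (0.32 ± 0.11, adjusted p = 0.0290) were called higher, and KRT7 was not (adjusted p = 0.0726). KRT19, a usual marker of pancreatic duct cells, was at 0.202 to 0.612 CPM in treated and 0.252 to 0.744 CPM in control libraries, EPCAM was at 0.656 to 1.37 CPM in treated and 1.43 to 2.59 CPM in control libraries, and CDH1, which encodes E-cadherin, had 0 reads in all 6, a count that allows up to 3 reads in a library. The 6 epithelial markers summed to 6519 to 8300 CPM in treated and 5329 to 6128 CPM in control libraries. Of markers of other cells, those of endothelium summed to 1.37 to 3.25 CPM in treated and 1.64 to 3.18 CPM in control libraries. Leukocyte markers summed to 0.202 to 0.258 CPM in treated and 0.0754 to 5.07 CPM in control libraries, the upper end being control replicate 2, which had 153 reads of PTPRC, the CD45 gene, and 14 of CD3E, against 0 of either in the other controls. Without that library MET and ERBB2 had log2 fold changes of -0.89 and 0.60. The 4 fibroblast markers summed to 67.4 to 76.3 CPM in treated and 47.4 to 60.9 CPM in control libraries. That sum was mostly COL1A1 (56.3 to 64.6 CPM in treated, 35.9 to 50.8 CPM in control libraries), a collagen gene that rose by 0.48 ± 0.13 on the log2 scale (adjusted p = 0.00676). LUM, which encodes lumican, went the other way (1.29 to 2.34 CPM in treated, 3.55 to 3.92 CPM in control libraries, with a log2 fold change of -1.04 ± 0.30, adjusted p = 0.0105). Both values are without correction. The COL1A1 transcript has 61.1% GC, in a decile where 41.25% of tested genes were called higher. That of LUM has 36.3% GC, in a decile where 49.3% were called lower. COL1A2 was at 0 to 0.115 CPM, and the part of these marker differences in the results below was not tested.

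Promoter windows of 4 members are shown, from 250 bases before to 50 bases after the start of the gene in RefSeq (GRCh38.p14). MET is shown as the member that fell, and AREG, EREG and EPGN because they are neighbours on chromosome 4 and the first pair was called higher after the correction. Capitals mark matches, on either strand, to TATAAA (the TATA box), GGGCGG (the GC box) and TGACGTCA (the cAMP response element). The windows lie at chr7:116671946-116672245 (plus strand), chr4:74444886-74445185 (plus), chr4:74364895-74365194 (plus) and chr4:74308220-74308519 (plus).
MET: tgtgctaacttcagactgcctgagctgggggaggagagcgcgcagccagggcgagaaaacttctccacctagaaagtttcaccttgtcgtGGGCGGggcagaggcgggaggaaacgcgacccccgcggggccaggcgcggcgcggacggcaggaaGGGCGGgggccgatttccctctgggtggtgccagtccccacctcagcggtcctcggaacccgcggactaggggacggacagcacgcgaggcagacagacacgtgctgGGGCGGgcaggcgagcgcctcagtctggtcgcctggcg
AREG: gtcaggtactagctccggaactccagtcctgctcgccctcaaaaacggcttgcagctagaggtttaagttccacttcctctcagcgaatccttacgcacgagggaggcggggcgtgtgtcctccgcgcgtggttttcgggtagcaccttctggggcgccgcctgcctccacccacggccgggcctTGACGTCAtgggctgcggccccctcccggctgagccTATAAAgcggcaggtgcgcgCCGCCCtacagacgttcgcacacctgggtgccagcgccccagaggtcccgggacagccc
EREG: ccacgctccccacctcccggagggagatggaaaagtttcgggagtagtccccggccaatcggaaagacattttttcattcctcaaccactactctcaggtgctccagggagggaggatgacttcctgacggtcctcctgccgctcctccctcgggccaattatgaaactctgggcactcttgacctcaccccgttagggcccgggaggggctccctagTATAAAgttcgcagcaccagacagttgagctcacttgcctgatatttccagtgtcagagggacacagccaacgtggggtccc
EPGN: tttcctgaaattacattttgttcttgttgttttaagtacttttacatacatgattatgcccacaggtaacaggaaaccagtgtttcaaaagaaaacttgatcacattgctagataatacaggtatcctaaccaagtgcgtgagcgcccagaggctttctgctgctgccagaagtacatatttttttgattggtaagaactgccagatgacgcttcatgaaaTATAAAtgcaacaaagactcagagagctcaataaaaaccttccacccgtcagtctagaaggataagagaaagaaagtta

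The 3 neighbouring ligand genes each hold TATAAA close before the start, 29 bases before it in AREG, 32 in EREG and 29 in EPGN, whereas MET holds no TATAAA in its window and has 3 matches to GGGCGG. This was not particular to MET. Of the members not shown, the first windows of EGFR, AXL, TGFA and HBEGF also held GGGCGG and no TATAAA. That of ERBB2 held neither, and a further window of EGFR held TATAAA. Of 35116 RefSeq windows, 11.5% held TATAAA, 45% GGGCGG and 1.85% TGACGTCA. The AREG window also held TGACGTCA, 65 bases before the start, and none of the matches in these 4 windows overlapped. GC content was 69.3% in the MET window, 66.3% in that of AREG, 57.7% in that of EREG and 37.7% in that of EPGN, with a median of 58.7% over all windows. A match is a run of letters, not a shown binding site. Windows were found for 9 members, without ERBB3.

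Levels can be compared between genes only per length. On that scale AXL was far above the other receptors, at 58.3 ± 2.94 CPM per kb of merged exons in treated and 54.6 ± 4.32 CPM per kb in control cells (mean ± SD, n = 3 each). In controls EGFR followed at 7.63 ± 1.63, MET at 6.25 ± 1.26, ERBB2 at 4.88 ± 0.755 and ERBB3 at 1.07 ± 0.0179 CPM per kb. In treated cells EGFR and ERBB2 were at 6.95 ± 0.372 and 6.94 ± 0.701 CPM per kb, MET was at 3.70 ± 0.416 and ERBB3 at 1.34 ± 0.343 CPM per kb. Over the libraries, EGFR overlapped with MET and MET with ERBB2 in controls, whereas in treated cells EGFR overlapped with ERBB2 and both lay above MET in every library. Merged exons and longest transcript have 10321 and 4930 bases for ERBB2, 12521 and 9821 for EGFR, and 7039 and 6635 for MET. Per longest transcript ERBB2 would stand higher relative to EGFR and MET, so their order and overlaps are given for merged exons only. Of the ligands, AREG had the highest density, at 11.3 ± 1.42 CPM per kb in treated and 8.94 ± 0.567 CPM per kb in control cells. TGFA (4.41 ± 0.277 in treated, 4.60 ± 0.489 in control cells) and EREG (3.85 ± 0.507 in treated, 4.11 ± 0.427 in control cells) had overlapping levels, HBEGF lay lower (1.89 ± 0.186 in treated, 1.73 ± 0.259 in control cells) and EPGN lowest (0.780 ± 0.195 in treated, 0.855 ± 0.293 in control cells), all in CPM per kb.

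**Figure D1:**
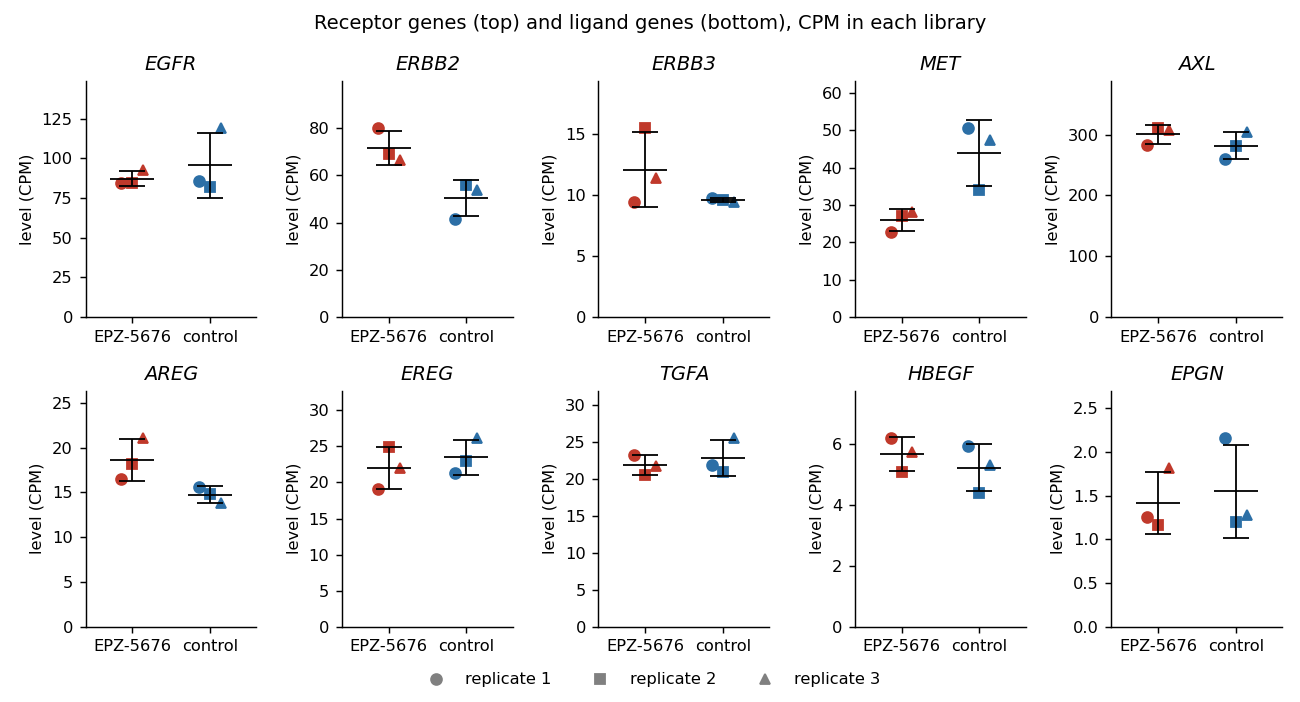
Level of each member gene in each library in CPM, treated libraries (red) left of controls (blue), with black bars for mean ± SD (n = 3 each) and a symbol for the replicate number. ERBB2 and AREG lay higher and MET lower in all 3 treated libraries than in any control, and the other 7 genes overlapped between groups. Of all tested genes, 21.8% had every treated library above every control and 24.2% had every treated library below.

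MET (ENSG00000105976, chromosome 7, 116672390 to 116798386, plus strand, GRCh38) had 22.7, 27.2 and 28.2 CPM in treated replicates 1, 2 and 3, against 50.5, 33.9 and 47.4 CPM in control replicates 1, 2 and 3. Every treated library lay below every control, as for 24.2% of all tested genes, with control replicate 2 nearest to the treated libraries and treated replicate 1 lowest. The log2 fold change was -0.75 ± 0.15 (SE, edgeR adjusted p = 0.000871; 95% interval -1.06 to -0.45). Of all tested genes 18.7% were lower at this threshold and 15.0% higher, 33.7% in either direction, so that 1 member lower and 1 higher of 10 is not above the background. The call held in each fit that left out a library (adjusted p from 4.00e-05 to 0.00863). After the GC and length correction the log2 fold change of MET was -0.32 ± 0.10 with an adjusted p of 0.0485, and this call was lost in 5 of 6 fits that also left out a library (adjusted p up to 0.182, without control replicate 1). The transcript of MET has 42.4% GC, in the third decile of tested genes, where the median log2 fold change was -0.45 and 38.7% of genes were called lower.

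ERBB2 (ENSG00000141736, chromosome 17, 39687914 to 39730426, plus strand) had 79.8, 68.8 and 66.2 CPM in treated replicates 1, 2 and 3, against 41.4, 55.8 and 53.9 CPM in control replicates 1, 2 and 3. Every treated library lay above every control, as for 21.8% of all tested genes. Treated replicate 1 and control replicate 1 stood farthest apart, as they did for MET. ERBB2 rose by 0.51 ± 0.12 on the log2 scale (adjusted p = 0.00391; 95% interval 0.25 to 0.76), and by 0.39 to 0.60 in the fits that left out a library, all past the threshold. After the correction its value was 0.24 ± 0.09 (adjusted p = 0.102). Its transcript has 57.5% GC, in the eighth decile, where the median log2 fold change was 0.26 and 27.0% of genes were called higher. Exons of ERBB2 overlap those of MIEN1 by 571 bases and of PGAP3 by 194 bases on the other strand, out of 10321, and whether reads were counted by strand is not given. MIEN1 and PGAP3 had log2 fold changes of 0.24 ± 0.14 and 0.07 ± 0.23 and did not pass.

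ERBB3 (chromosome 12, 56076799 to 56103505) was at 9.43, 15.5 and 11.4 CPM in treated replicates 1, 2 and 3, against 9.81, 9.59 and 9.49 CPM in controls. The treated libraries spread on both sides of the tight controls, with treated replicate 2 the highest. The log2 fold change of ERBB3 was 0.33 ± 0.19 (adjusted p = 0.188), with an interval of -0.06 to 0.73, and it was 0.11 without treated replicate 2. EGFR (chromosome 7, 55019021 to 55211628) was at 84.2, 84.6 and 92.4 CPM in treated libraries, against 85.7, 81.9 and 119 CPM in controls. Control replicate 3 was the one library apart, and the remaining 5 lay close together. Without it the log2 fold change of EGFR was 0.06, and after the correction it was 0.05. With all libraries and no correction, the log2 fold change of EGFR was -0.13 ± 0.12 (adjusted p = 0.436), the interval of -0.39 to 0.12 leaving room for a fall to 0.763 times the control level or a rise to 1.09 times. AXL (chromosome 19, 41219203 to 41261766) was at 283, 310 and 308 CPM in treated libraries, against 259, 282 and 304 CPM in controls. With the most reads of the members it had the narrowest interval, -0.11 to 0.30 around 0.09 ± 0.10 (adjusted p = 0.500).

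Because ratios between genes of 1 library do not depend on scaling, reads of the receptors were also set against each other, in pairs chosen after the values were seen. ERBB2 had 3.51, 2.53 and 2.35 reads per MET read in treated replicates 1, 2 and 3, against 0.820, 1.64 and 1.14 in control replicates 1, 2 and 3. ERBB2 had 0.948, 0.814 and 0.716 reads per EGFR read in treated libraries, against 0.484, 0.681 and 0.454 in controls. Neither ratio overlapped between the groups, and control replicate 2 was the control nearest to the treated libraries in both. For ERBB2 per MET this was fixed by the choice of pair, since ERBB2 lay above and MET below all controls in every treated library. ERBB2 per EGFR was chosen with the same values of ERBB2 known, so its lack of overlap is no separate support. EGFR per MET, also computed, was 3.705, 3.11 and 3.273 in treated libraries and 1.695, 2.414 and 2.507 in controls. Transcript GC content was 57.5% for ERBB2, 47.5% for EGFR and 42.4% for MET, and the ratios are not corrected for it. The share of all gene pairs without overlap was not determined. With 3 libraries against 3, an exact permutation test cannot give a two-sided p below 0.1. Per kb of merged exons, ERBB2 made up 45.5% ± 3.86 of the summed density of the 3 ERBB receptors in treated cells and 36.1% ± 4.72 in control cells. These shares, too, depend on the length used. EGFR made up 45.7% ± 2.97 of it in treated and 55.9% ± 5.10 in control cells. In the sum of all 5 receptors AXL held 75.5% ± 0.785 in treated and 73.4% ± 1.74 in control cells, so that the changes of MET and ERBB2 concern the smaller part of these transcripts. MET held 4.79% ± 0.362 in treated and 8.43% ± 1.86 in control cells. The libraries are from bulk RNA, in which fewer cells with a transcript and less of it per cell cannot be told apart.

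**Figure D2:**
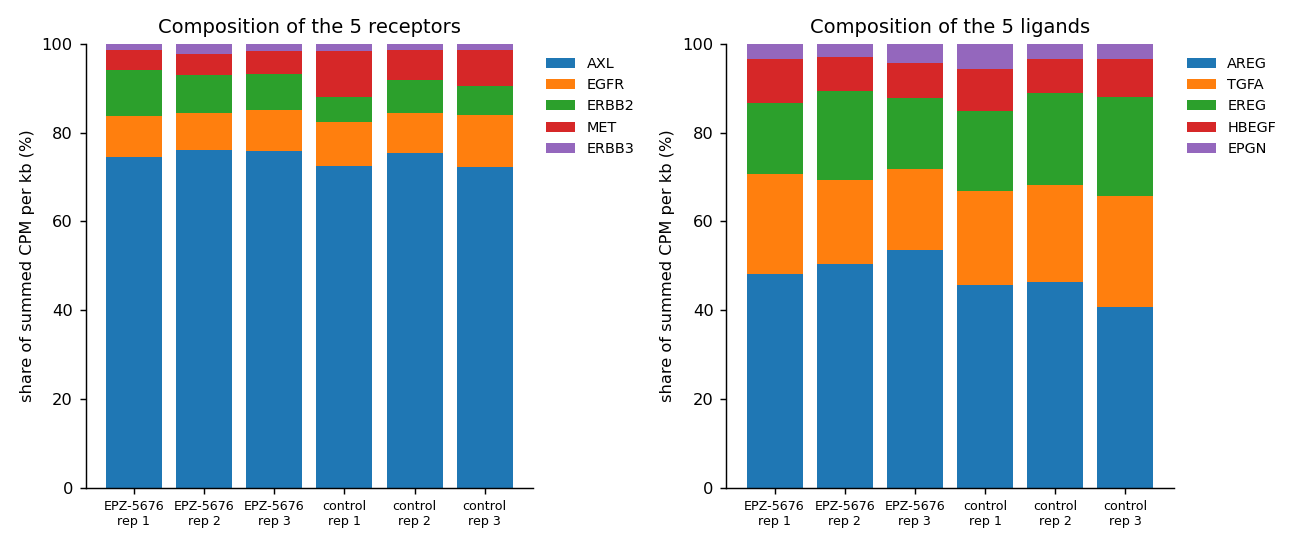
Share of each gene in the summed CPM per kb of the 5 receptor genes (left) and the 5 ligand genes (right) in percent, 1 bar per library, treated libraries on the left of each panel. AXL made up 72.4% to 76.0% of the receptor sum in the 6 libraries, and AREG was the largest ligand share in each of them (48.1% to 53.5% in treated, 40.6% to 46.4% in control libraries).

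Among the ligands AREG, the amphiregulin gene (ENSG00000109321, chromosome 4, 74445134 to 74455009), was at 16.5, 18.2 and 21.1 CPM in treated replicates 1, 2 and 3, against 15.6, 14.8 and 13.8 CPM in control replicates 1, 2 and 3. All treated libraries lay above all controls, as did 21.8% of all tested genes, but treated replicate 1 was only just above the highest control. The log2 fold change of AREG was 0.34 ± 0.16, which did not pass in edgeR (adjusted p = 0.101) and passed in DESeq2 (adjusted p = 0.0389). DESeq2 called 2841 of the 15496 tested genes higher. After the correction AREG was called higher, at 0.62 ± 0.13 (adjusted p = 0.00348), and stayed past the threshold in all 6 fits that also left out a library (0.51 to 0.68; adjusted p from 0.00607 to 0.0388). Its transcript has 45.3% GC, in the fourth decile, where the median log2 fold change was -0.30, 26.5% of genes were called lower and 1.61% higher.

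EREG, the epiregulin gene (ENSG00000124882, chromosome 4, 74365143 to 74388751), was at 19.1, 24.9 and 22.0 CPM in treated libraries, against 21.4, 22.9 and 26.2 CPM in controls. The groups overlapped, with treated replicate 1 the lowest and control replicate 3 the highest. The log2 fold change of EREG was -0.09 ± 0.15 (adjusted p = 0.661), and after the correction it was 0.46 ± 0.13 (adjusted p = 0.0202), so that the sign and the call both depend on it. The corrected call was lost without treated replicates 1 or 2 or without control replicate 1 (adjusted p of 0.0555, 0.0883 and 0.118). EREG has the lowest transcript GC of the members, 36.1%, in the lowest decile, where the median log2 fold change was -0.58 and 49.3% of genes were called lower.

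AREG lies 56.4 kb beyond EREG, and EREG 49.8 kb beyond EPGN, with no other protein-coding gene between them. AREG had 0.863, 0.731 and 0.959 reads per EREG read in treated replicates 1, 2 and 3, against 0.732, 0.646 and 0.527 in control replicates 1, 2 and 3, a ratio that overlapped between the groups by the narrow gap of treated replicate 2 and control replicate 1. EPGN, the epigen gene (chromosome 4, 74308473 to 74315307), was at 1.26, 1.17 and 1.82 CPM in treated libraries, against 2.16, 1.20 and 1.29 CPM in controls. One library in each group was high, and the log2 fold change of -0.13 ± 0.38 (adjusted p = 0.823) had an interval of -0.93 to 0.67, or 0.526 to 1.59 times the control level. BTC, the betacellulin gene, which lies 290 kb beyond AREG, had 0 to 6 reads per library and was not tested.

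TGFA, which encodes transforming growth factor alpha (chromosome 2, 70447280 to 70554193), was at 23.3, 20.6 and 21.7 CPM in treated libraries, against 22.0, 21.0 and 25.6 CPM in controls. HBEGF, which encodes the heparin-binding ligand (chromosome 5, 140332843 to 140346631), was at 6.21, 5.10 and 5.77 CPM in treated libraries, against 5.96, 4.41 and 5.33 CPM in controls. Both sets of values overlapped. The log2 fold change was -0.06 ± 0.14 for TGFA (adjusted p = 0.770, interval -0.36 to 0.23) and 0.12 ± 0.22 for HBEGF (adjusted p = 0.715, interval -0.34 to 0.58), and neither passed after the correction. In the summed density of the 5 ligands AREG held 50.7% ± 2.69 in treated and 44.2% ± 3.13 in control cells. The sum itself was 20.8, 21.9 and 23.9 CPM per kb in treated replicates 1, 2 and 3, against 20.8, 19.3 and 20.6 CPM per kb in controls, with treated replicate 1 at the level of control replicate 1.

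**Figure D3:**
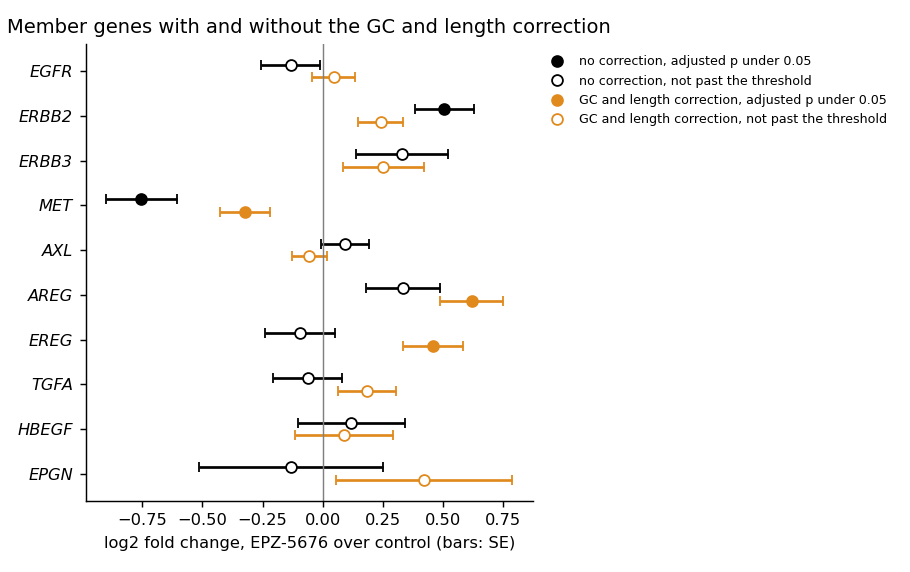
Log2 fold change (EPZ-5676 over control) ± SE of each member in edgeR, without correction (black) and after the GC and length correction (orange), with filled points for an adjusted p under 0.05. The filled points are MET (-0.75) and ERBB2 (0.51) without correction, and MET (-0.32), AREG (0.62) and EREG (0.46) after it.

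After the correction 1 member was lower and 2 were higher, where the same fit called 5.58% of all tested genes lower and 5.4% higher, 11.0% in either direction. The median log2 fold change of the 10 members was 0.02 without correction, against -0.05 for all genes tested. After the correction it was 0.21, against -0.0045 for all genes. Set against the median of their own GC decile, 8 members lay above it, by 0.01 (EGFR) to 0.64 (AREG), and AXL and MET lay below it. A median has as many genes above it as below. The distances of EGFR (0.01, SE 0.12) and HBEGF (0.10, SE 0.22) were smaller than the SE of their fold changes. Whether the members differ from their deciles as a set was not tested. Direction was the same under TMM, RLE and upper-quartile scaling for all 10, but the correction turned the sign of EREG, EGFR (0.05), TGFA (0.18), EPGN (0.42) and AXL (-0.06), of which EREG alone was called. Leaving out control replicate 3 turned the sign of EGFR and TGFA (0.03), and leaving out control replicate 1 that of EPGN (0.20), in fits without correction.

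**Figure D4:**
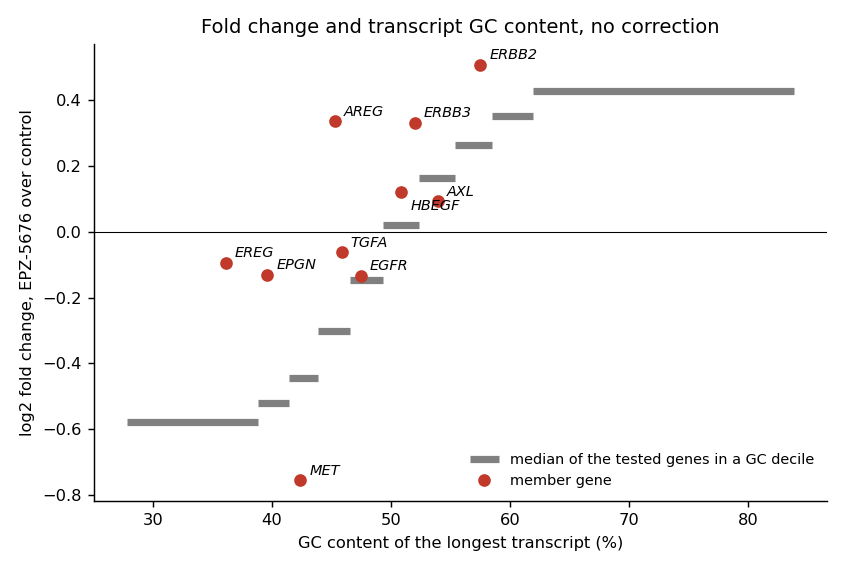
Log2 fold change without correction (EPZ-5676 over control) of the 10 members (red) against the GC content in percent of the longest transcript, with a grey bar for the median of all tested genes in each GC decile, drawn over the GC range of that decile. The grey bars climb from -0.58 in the lowest to 0.43 in the highest decile. MET and AXL lie below their bars, and all other members lie above theirs, EGFR by only 0.01.

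The genes whose pattern over the 6 libraries was most like that of MET, the member with the smallest p, were APAF1 (Pearson r = 0.998 of log2 CPM), which encodes the scaffold of the apoptosome, IPO7 (0.998), a nuclear import receptor, and ITGA6 (0.998), an integrin subunit. Such likeness was common, since 897 of 12622 protein-coding genes compared had an r over 0.95 with MET, and their transcripts (41.7%, 37.6% and 42.9% GC) lie in the low deciles of GC content as that of MET does. Over 6 libraries in 2 groups this is a description and says nothing of shared control.

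Other receptors and ligands of the ERBB, MET and TAM families came from a list of 14 genes, of which 7 were tested, 2 rose and 2 fell, with a median log2 fold change of -0.03, against -0.05 for all genes tested. Of all tested genes 15.0% were called higher and 18.7% lower. GAS6, the ligand of AXL, had the clearest change, at 66.8, 61.0 and 71.3 CPM in treated replicates 1, 2 and 3, against 32.2, 37.9 and 34.4 CPM in control replicates 1, 2 and 3. The groups were far apart relative to their spread, and GAS6 rose by 0.93 ± 0.11 on the log2 scale (adjusted p = 2.44e-05). It also rose after the correction, by 0.54 ± 0.09 (adjusted p = 0.000429), and in each of the 15 alternatives run and the 6 corrected fits without a library. TYRO3, a TAM receptor that also binds GAS6, rose (126.8 ± 6.58 CPM in treated, 101.1 ± 6.31 CPM in control cells; 0.33 ± 0.10, adjusted p = 0.0158). PROS1, the protein S gene, whose product is a TAM ligand too, and NRG4, a neuregulin that binds ERBB4, fell (-0.53 ± 0.18, adjusted p = 0.0286, and -0.80 ± 0.26, adjusted p = 0.0202). TYRO3, PROS1 and NRG4 did not pass after the correction (adjusted p of 0.123, 0.900 and 0.541). MST1R, the receptor closest to MET, was at 53.5 ± 5.22 CPM in treated and 55.4 ± 5.03 CPM in control cells (-0.05 ± 0.12, adjusted p = 0.775), but it was called lower after the correction (-0.39 ± 0.09, adjusted p = 0.00643). MST1, its ligand gene, did not pass (0.19 ± 0.23). Without correction 1 gene of this list was higher when treated replicate 1 or control replicate 3 was left out, 1 was lower without treated replicate 3 or control replicate 3, and 0 were lower without treated replicate 1 or control replicate 1. EGF, NRG3 and MERTK had 0 reads in all 6 libraries, and ERBB4, BTC, NRG2 and HGF had at most 10 in any, so that HGF, the ligand gene of MET, and ERBB4, the remaining ERBB receptor gene, were near or below detection at this depth.

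Of 16 adaptors and first effectors of the receptors, 15 were tested, 3 rose and 3 fell, with a median log2 fold change of -0.16 (0.11 after the correction). Both counts are close to the 15.0% higher and 18.7% lower of all tested genes. The kinase gene SRC (0.52 ± 0.12), the docking protein gene GAB2 (0.43 ± 0.12) and the phospholipase gene PLCG1 (0.28 ± 0.10) rose, and the phosphatase gene PTPN11 (-0.57 ± 0.15), which encodes SHP2, and the adaptors CRK (-0.53 ± 0.14) and CRKL (-0.32 ± 0.10) fell (adjusted p from 0.00326 for SRC to 0.0401 for PLCG1). The most expressed genes of the list that did not pass were the adaptors SHC1 (299.5 ± 12.1 CPM in treated, 279.6 ± 22.8 CPM in control cells) and GRB2 (175.9 ± 11.8 CPM in treated, 177.5 ± 5.58 CPM in control cells). After the correction 1 gene of the list was lower, CRKL (-0.26 ± 0.07, adjusted p = 0.0271), and 0 were higher, where 5.58% of all tested genes were lower and 5.4% higher, and CRKL passed in 1 of 6 corrected fits that left out a library. Without treated replicate 1 the uncorrected test called 0 of these genes lower, without control replicate 1 it called 1 lower, and without treated replicate 2 it called 1 higher.

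Of 19 genes for ligand shedding, receptor turnover and receptor inhibition, all 19 were tested, 4 rose and 5 fell, with a median log2 fold change of -0.33 (-0.01 after the correction). These counts too stand beside 15.0% of all tested genes called higher and 18.7% lower. RNF41, a ubiquitin ligase that marks ERBB3 for degradation, rose by 0.37 ± 0.11 (66.5 ± 5.31 CPM in treated, 51.4 ± 2.11 CPM in control cells; adjusted p = 0.0123), and by 0.52 ± 0.09 after the correction (adjusted p = 0.000865). The sorting gene HGS (0.44 ± 0.10) and RHBDF1 (0.39 ± 0.12) and RHBDF2 (0.47 ± 0.15), which encode the iRhom partners of ADAM17, rose. The endocytic adaptor EPS15 (-0.72 ± 0.19), the deubiquitinase USP8 (-0.74 ± 0.22), the sheddase ADAM10 (-0.74 ± 0.22) and the metalloprotease inhibitor TIMP3 (-0.33 ± 0.11) fell, as did the phosphatase gene PTPN12 (-0.47 ± 0.16), named after its values were seen. None of these 8 genes passed after the correction. ERRFI1, a feedback inhibitor of EGFR (157.1 ± 13.1 CPM in treated, 154.5 ± 19.6 CPM in control cells; 0.02 ± 0.11, adjusted p = 0.884), did not pass without correction and was called higher after it (0.39 ± 0.08, adjusted p = 0.00444), as was the ubiquitin ligase gene CBLB (0.50 ± 0.15, adjusted p = 0.0344), chosen in the same way as PTPN12. The corrected call of CBLB was lost with the replicate block (adjusted p = 0.0533) and in 5 of 6 corrected fits that left out a library, and it held without control replicate 3, while RNF41 and ERRFI1 passed in all 6. The phosphatase gene PTPN1 did not pass in either fit. After the correction 3 genes of the list were higher and 0 lower, where 5.4% of all tested genes were higher and 5.58% lower. Without correction, 2 were higher when treated replicate 1, treated replicate 3 or control replicate 1 was left out, 3 were lower when any of these was left out, and 2 were lower without control replicate 3.

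**Figure D5:**
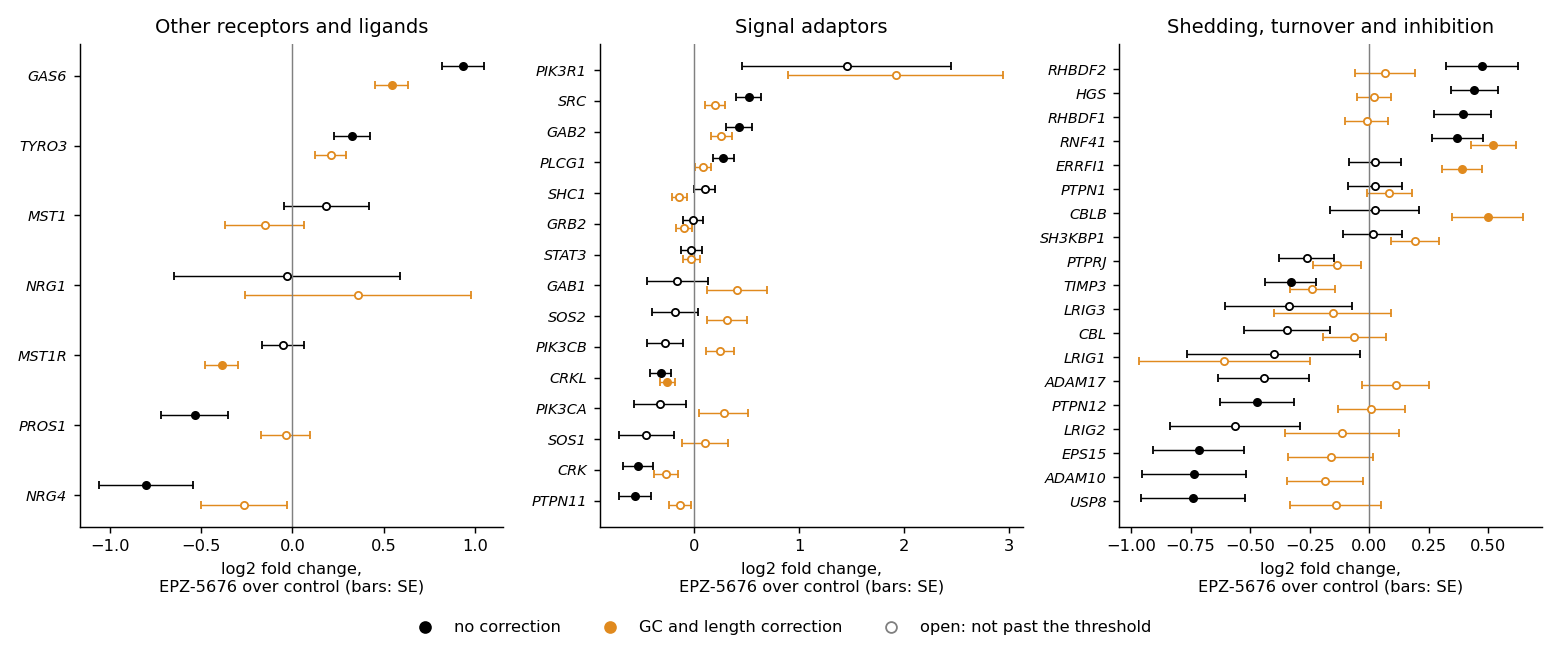
Log2 fold change (EPZ-5676 over control) ± SE of the tested genes of the 3 lists in edgeR, without correction (black) and after the GC and length correction (orange), with filled points for an adjusted p under 0.05. GAS6, RNF41 and CRKL are the genes filled in both colours, at 0.93, 0.37 and -0.32 without correction.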

How the data were processed

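Per the labels' protocols, poly(A) RNA was captured with oligo(dT) and the library chemistry used dUTP, which keeps strand. The submitters' processing notes name HISAT2 2.2.1 and the build GRCh38. The authors deposited raw whole-number read counts per gene; the counting tool and its strand setting were not found in the sources used here. The gene length in bases deposited by the authors equals the merged exon length in GENCODE 29 for all 58735 genes. Counts were tested with edgeR 4.0.16 (R 4.3.3): filterByExpr with a minimum count of 10, TMM scaling, robust quasi-likelihood test, two-sided, Benjamini-Hochberg adjusted p under 0.05. The SE is the log2 fold change over the square root of F, and the 95% intervals use it. The GC and length correction fits natural splines (5 degrees of freedom each) per library and enters the fit as an offset. They are fitted to the deviation of each gene's log2 CPM (prior count 2) from its mean over the libraries. There were 9 tested genes with no GC value, which were not corrected. DESeq2 1.42.0 and limma 3.58.1 were alternatives. The edgeR script was tested on simulated data. All 10 members were named; of each list, the 4 called genes of smallest p per direction and the 2 most expressed uncalled ones; and the 3 protein-coding genes that correlated best with the member of smallest p. Members, lists and alternatives were chosen with earlier results of these data known. Figures used Python 3.11.15 and matplotlib 3.10.9. Counting error is only part of the error in reads without molecular identifiers.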

Additional observations from a re-analysis of the deposited data

How the results depend on the processing

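Without correction, the calls of MET and ERBB2 kept direction and threshold under both other scalings, both other filters, DESeq2, limma-voom, the replicate block and each left-out library. With the GC and length correction the numbers called over all tested genes were 837 higher and 864 lower, against 2326 and 2899 without it, and the replicate block with the correction gave 689 and 685. Leaving out 1 library gave 1350 to 2780 higher and 1753 to 3167 lower (1350 and 1884 without treated replicate 1, 1753 lower without control replicate 1). Leaving out 1 library together with the correction, an alternative chosen after seeing the data, gave 397 to 856 higher and 512 to 815 lower.

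Members called higher numbered 2 with DESeq2, which called 2841 of all 15496 tested genes higher and 2814 lower. They also numbered 2 with the correction and with the block and correction, and 1 to 2 in corrected fits without a library. Members called lower numbered 0 with the block and correction and 0 to 1 in corrected fits without a library. With the block and correction the adjusted p was 0.0801 for MET, 0.154 for ERBB2, 0.0154 for AREG and 0.0339 for EREG. EREG reversed to 0.46 with the correction, 0.47 with the block and correction, and 0.49 to 0.54 in the called corrected fits without a library (0.49 without treated replicate 3, 0.54 and 0.50 without control replicates 2 and 3).

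Of the other receptors and ligands, 1 was higher and 1 lower with the block, the correction or both, and 1 to 2 higher and 0 to 2 lower with a library left out (1 higher and 0 to 1 lower with the correction too). Of the adaptors, 0 were higher and 1 lower with the correction, with or without the block, and 1 to 3 higher and 0 to 4 lower with a library left out (0 higher and 0 to 1 lower with the correction too). Of the shedding and turnover genes, 3 were lower with the block, 0 lower with the correction, 2 higher and 0 lower with both, and 2 to 4 higher and 2 to 6 lower with a library left out (2 to 3 higher and 0 to 1 lower with the correction too). RHBDF1 turned to -0.011 with the correction and -0.010 with the block and correction. Over the fits that left out a library, with or without the correction, the log2 fold change ran from -0.68 to 0.080 for PROS1, -0.055 to 0.51 for RHBDF1, -0.046 to 0.62 for RHBDF2, -0.91 to 0.036 for USP8, -0.92 to 0.028 for ADAM10, -0.0028 to 0.50 for HGS and -0.19 to 0.54 for EREG. The values of the first 6 of these genes on the far side of 0 were not past the threshold.

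Replicate numbers did not pair the libraries: deviations from the group means correlated at -0.11, -0.09 and 0.05 for numbers 1, 2 and 3, and treated replicate 1 correlated best with control replicate 2 (0.15). The block without correction called 1677 genes higher and 2219 lower and left the member calls as they were. The causes of these differences were not tested. EPGN had the fewest reads of the members, 39 to 86 per library, and the widest interval; how much of that width is counting error was not tested.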
